A study of Mus musculus with 40 samples.

Results

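Trem2 and the genes that mark lipid-associated macrophages were followed by bulk RNAseq in resected rib tissue of immature and mature mice. The list named 9 genes, which were the receptor Trem2, its signalling adaptor Tyrobp, and Gpnmb, Apoe, Lpl2, Cd9, Fabp5, Lgals3 and Cd36. Of these 9 symbols, 8 were found among the 21204 genes of the normalized table. Lpl2 was not among its symbols, and Lpl, which encodes lipoprotein lipase, is given below as a further gene and not as a member. The list was chosen by the levels of Trem2 at 0 and 2 days post resection (dpr), between which Trem2 rose differently in the ages. Values of Trem2 at 0dpr and 2dpr are therefore given as a description, with no test. For all 8 genes the same holds for how far the ages differed in their step from 0dpr to 2dpr.

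The study compared immature with mature mice to learn how age changes the repair of a large rib defect. Immature mice were 7 weeks old and mature mice were more than 10 months old, all were labelled Wild Type and carried no treatment other than the surgery, and the study's methods describe them as females of the C57BL/6 background. Composite tissue of bone, bone marrow and intercostal muscle was ground whole, with no sorting of cells, at baseline and at 0, 2, 5 and 14dpr. Each of the 10 groups held 4 libraries, apart from mature mice at 5dpr with 3. The study defines baseline as the state before resection, whereas the sample labels describe all tissue as taken after it, and the study's definition is used here. In whole tissue, a change in the number of cells that express a gene and a change in its RNA per cell cannot be told apart.

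TREM2 is a surface receptor of macrophages, microglia and osteoclasts that binds lipids, lipoproteins and cell debris, and it signals through the adaptor DAP12, the product of Tyrobp. Macrophages that take up lipid from dying cells, in fat tissue, arteries and injured organs, share a set of genes for lipid binding, lysosomes and cholesterol export, of which Gpnmb, Lgals3, Fabp5, Cd9, Apoe, Cd36 and Lpl are the best known. Several of these genes are not specific to macrophages. Osteoclasts use Trem2, Tyrobp and Gpnmb, adipocytes, muscle and endothelium use Cd36 and Lpl, and the liver is the main source of Apoe.

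In the GRCm38 build, Trem2 (ENSMUSG00000023992) lies on the plus strand at chr17:48346401-48354147, Tyrobp (ENSMUSG00000030579) on the plus strand at chr7:30413760-30417585, and Gpnmb (ENSMUSG00000029816) on the plus strand at chr6:49036546-49070929. Apoe (ENSMUSG00000002985) lies on the minus strand at chr7:19696109-19699188, Cd9 (ENSMUSG00000030342) on the minus strand at chr6:125460266-125494791, and Cd36 (ENSMUSG00000002944) on the minus strand at chr5:17781690-17888801. Fabp5 (ENSMUSG00000027533) lies on the plus strand at chr3:10012548-10016607 and Lgals3 (ENSMUSG00000050335) on the plus strand at chr14:47367751-47386160. An exon of Cd9 is overlapped on the opposite strand by Gm26728, and the sources used here do not say whether counting used the strand. The promoters of Trem2 and Gpnmb are shown because these genes had the largest differences between the ages, from RefSeq's GRCm38.p6 table, 5′ to 3′ on the plus strand, at chr17:48346151-48346400 for Trem2 and chr6:49036268-49036532 for Gpnmb, which ends 15 bases past the start. Capitals mark the motifs found, on either strand.
Trem2: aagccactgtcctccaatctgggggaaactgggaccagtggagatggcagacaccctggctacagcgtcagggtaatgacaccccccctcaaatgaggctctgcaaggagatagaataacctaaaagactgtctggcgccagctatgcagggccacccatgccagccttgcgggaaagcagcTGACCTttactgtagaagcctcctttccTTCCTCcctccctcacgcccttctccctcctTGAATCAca
Gpnmb: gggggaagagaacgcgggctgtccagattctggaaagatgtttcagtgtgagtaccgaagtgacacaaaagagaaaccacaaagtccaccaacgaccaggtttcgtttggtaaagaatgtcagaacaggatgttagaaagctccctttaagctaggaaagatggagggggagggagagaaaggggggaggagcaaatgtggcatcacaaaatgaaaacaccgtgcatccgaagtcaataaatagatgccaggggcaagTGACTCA

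Counted from the start site of the table, the Trem2 promoter held the nuclear receptor element AGGTCA at -68 to -63 and the PU.1 core GAGGAA at -40 to -35, both on the minus strand, and the AP-1 motif TGANTCA at -9 to -3. Gpnmb held TGANTCA at 9 to 15 after its start, and no other of the motifs searched in this window. Of the 32851 promoter windows in the table, 16.3% held AGGTCA, 28.3% GAGGAA and 7.81% TGANTCA on either strand, and the E-box and M-box cores CACGTG and CATGTG were in 7.15% and 14.2%. Among the other members, Cd9 held CATGTG at -38 to -33, Cd36 held AGGTCA at -228 to -223, 2 of the 3 windows of Apoe held GAGGAA, and the window of Lgals3 held no motif searched. Tyrobp and Fabp5 had no entry. A match describes the letters of a window and does not show a bound factor.

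Total counts ranged from 6057756 to 21537070 per library, with a median of 9087417. Levels are given as CPM, counts scaled to the library size after TMM normalization, and a gene is called where edgeR's quasi-likelihood test, adjusted over all 21204 genes by Benjamini-Hochberg, gave an adjusted p under 0.05. Where libraries of 2 groups are said to overlap or not, the share of all genes that did so was not counted. Macrophage markers were present in every group, with 14 markers summing to between 1228 and 9817 CPM, and no marker of this list was at 0 in all libraries of a group. A pair of libraries stood apart. In immature 0dpr replicate 1, 8 hepatocyte markers summed to 8844 CPM, against 0 to 407 CPM in the other 38 libraries (median 4.33), and this library held the highest Apoe level of its group. In mature 2dpr replicate 3, 4845 genes lay more than 1 log2 unit outside the range of the rest of its group, of which 4022 lay below it, against 92 to 1348 genes in the other libraries (median 192.5). This library had the lowest Trem2, Tyrobp, Apoe, Lgals3 and Fabp5 of its group, and values without both libraries are given beside the results they move. The 1348 genes were those of immature 0dpr replicate 3, with 1265 of them below its group, against 907 genes in immature 0dpr replicate 1. Replicate 3 was kept in the fits without both libraries.

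Trem2 was the lowest of the 8 members before injury and one of the most changed after it. In immature mice, its level at baseline was 2.97, 2.89, 3.63 and 2.30 CPM, and in mature mice 10.7, 7.46, 7.39 and 6.40 CPM. Every mature library lay above every immature one. At 0dpr the values were 1.64, 1.85, 2.00 and 1.95 CPM in immature and 6.59, 8.11, 2.66 and 9.03 CPM in mature mice, again without overlap. These levels rested on 24 to 32 and 57 to 102 counts per library at baseline, and on 11 to 22 and 24 to 65 counts at 0dpr.

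At 2dpr, Trem2 reached 204, 139, 142 and 169 CPM in immature mice and 108, 184, 99.9 and 172 CPM in mature mice. The ages overlapped at 2dpr and at both later stages. At 5dpr the levels were 109, 111, 80.3 and 86.5 CPM in immature and 137, 132 and 108 CPM in mature mice, and at 14dpr 85.8, 69.2, 109.8 and 88.2 and 83.2, 67.4, 73.7 and 108 CPM. In both ages the order of the group means was 2dpr, 5dpr, 14dpr, baseline and 0dpr, from high to low. Of the neighbours in that order, 5dpr and 14dpr were not called as different in either age, though their libraries did not overlap in mature mice. The steps that end or start at 0dpr or 2dpr were not tested for Trem2. Libraries of 2dpr and 5dpr, and those of baseline and 0dpr, overlapped in mature and not in immature mice.

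The values that led to the list were those of 0dpr and 2dpr. Mean Trem2 was 1.86 and 164 CPM in immature mice, a ratio of 88.0, and 6.60 and 141 CPM in mature mice, a ratio of 21.4. The fitted changes were 6.44 ± 0.296 (SE) and 4.43 ± 0.257 (SE) on the log2 scale, and their difference was 2.01 ± 0.374 (SE). The difference between the ages (immature minus mature) was -1.80 ± 0.307 (SE) at 0dpr and 0.21 ± 0.212 (SE) at 2dpr, so that the greater part of it stood at 0dpr. Without both libraries that stood apart it was -1.74 at 0dpr and 0.08 at 2dpr, and the difference of the changes was 1.82. Across the genome, 0.0613% of genes were called in this difference of changes, the contrast by which Trem2 was chosen.

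**Figure D1:**
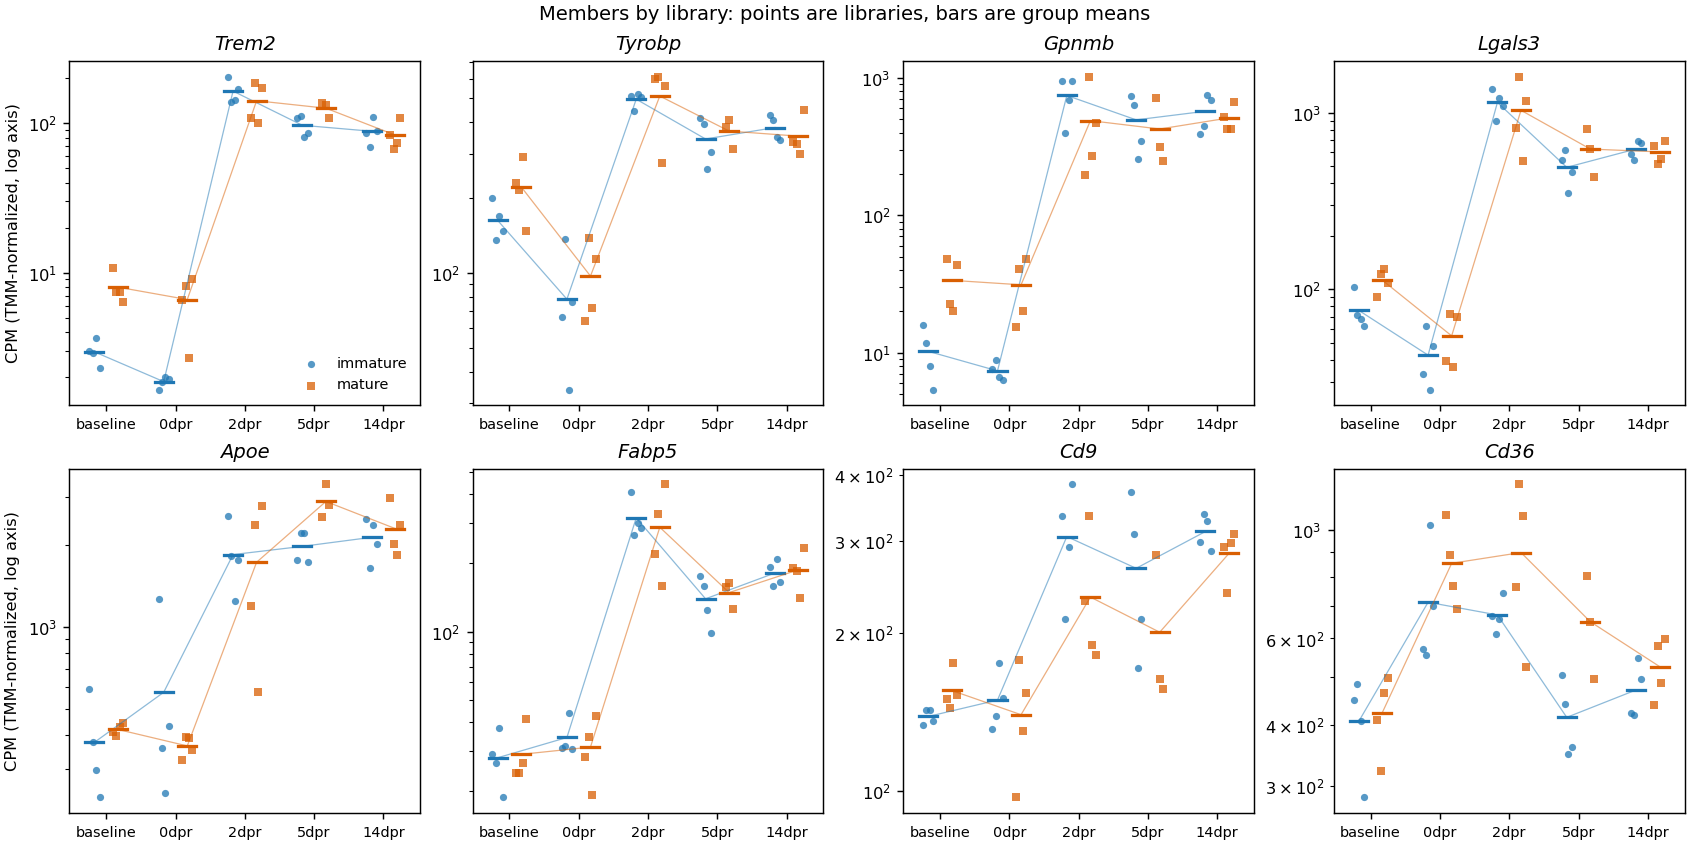
TMM-normalized CPM on a log axis of the 8 members in each library, by stage, for immature (circles) and mature mice (squares), with bars at the group means. Trem2 and Gpnmb were lower in all immature than in all mature libraries at baseline and 0dpr, and both overlapped between the ages from 2dpr on.

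Baseline was not used to choose Trem2, and there the ages were compared with a test. Trem2 was 7.98 CPM in mature and 2.95 CPM in immature mice, 2.71-fold higher in mature tissue. The fitted difference was -1.44 ± 0.272 (SE) on the log2 scale with edgeR's adjusted p = 0.00577. Trem2 was the 1 member of 8 called, where 0.226% of all genes were called lower in immature mice. It was called in all 8 fits that left out a baseline library, with an adjusted p of up to 0.0341. Beside it, the macrophage marker sum was 1999.9 to 2919 CPM in immature and 2379 to 3673 CPM in mature baseline tissue, and with the mean log2 CPM of these markers as a covariate the difference was -1.14 with edgeR's adjusted p = 0.0875.

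Gpnmb, a glycoprotein of lysosomes and the surface of lipid-laden macrophages that bone cells also make, had the same order of the ages. At baseline it was 15.8, 11.8, 7.94 and 5.36 CPM in immature and 47.9, 22.4, 20.2 and 43.8 CPM in mature mice. At 0dpr it was 7.62, 8.88, 6.65 and 6.26 CPM in immature and 15.2, 40.8, 20.2 and 48.3 CPM in mature mice. No immature library reached the lowest mature library of its stage. The difference at 0dpr was -2.08 ± 0.480 (SE) with edgeR's adjusted p = 0.0246, and Gpnmb was the 1 member called of the 7 tested there, where 0.156% of all genes were called lower in immature mice. At baseline the difference was -1.72 ± 0.461 (SE), which missed the threshold with edgeR's adjusted p = 0.0767. It was called by DESeq2 (adjusted p = 0.00770) and without both libraries that stood apart (edgeR's adjusted p = 0.0454). Neither of those libraries was of baseline, so leaving them out acted here only through what all groups share in the fit. Of all genes, 124 were called at baseline in the main fit, 334 by DESeq2 and 357 without both libraries. The call at 0dpr was lost without both of those libraries (-2.10, edgeR's adjusted p = 0.0616) and when any 1 of immature replicates 1 and 3 or mature replicates 2 and 4 was left out (-2.09, -2.03, -1.92 and -1.79, edgeR's adjusted p = 0.0913, 0.0505, 0.0802 and 0.107).

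No other member was called between the ages before or just after injury. At baseline the fitted differences of Tyrobp, Lgals3, Apoe, Fabp5, Cd9 and Cd36 were -0.45, -0.57, -0.16, -0.05, -0.17 and -0.06 on the log2 scale, with edgeR's adjusted p from 0.400 to 0.974. Cd9 was 133 to 143 CPM in immature and 144 to 175 CPM in mature baseline tissue, without overlap, and the other 5 overlapped. From 2dpr on, the levels of all members overlapped between the ages, apart from Apoe at 5dpr, which was 1759, 2209.7, 2206 and 1727 CPM in immature and 2532, 3338 and 2793 CPM in mature mice (log2 -0.55, not called). At 2dpr, 0 of 7 tested members were called by edgeR, with 0 at an unadjusted p under 0.05 and 0 by DESeq2, where 0.627% of all genes were called. At 5dpr, 0 of 8 were called, with 1 at an unadjusted p under 0.05 and 0 by DESeq2, where edgeR called 0 of all genes (0%), with 1081 at an unadjusted p under 0.05 and 33 called by DESeq2. At 14dpr, 0 of 8 were called, with 0 at an unadjusted p under 0.05 and 0 by DESeq2, where 0.00943% of all genes were called.

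**Figure D2:**
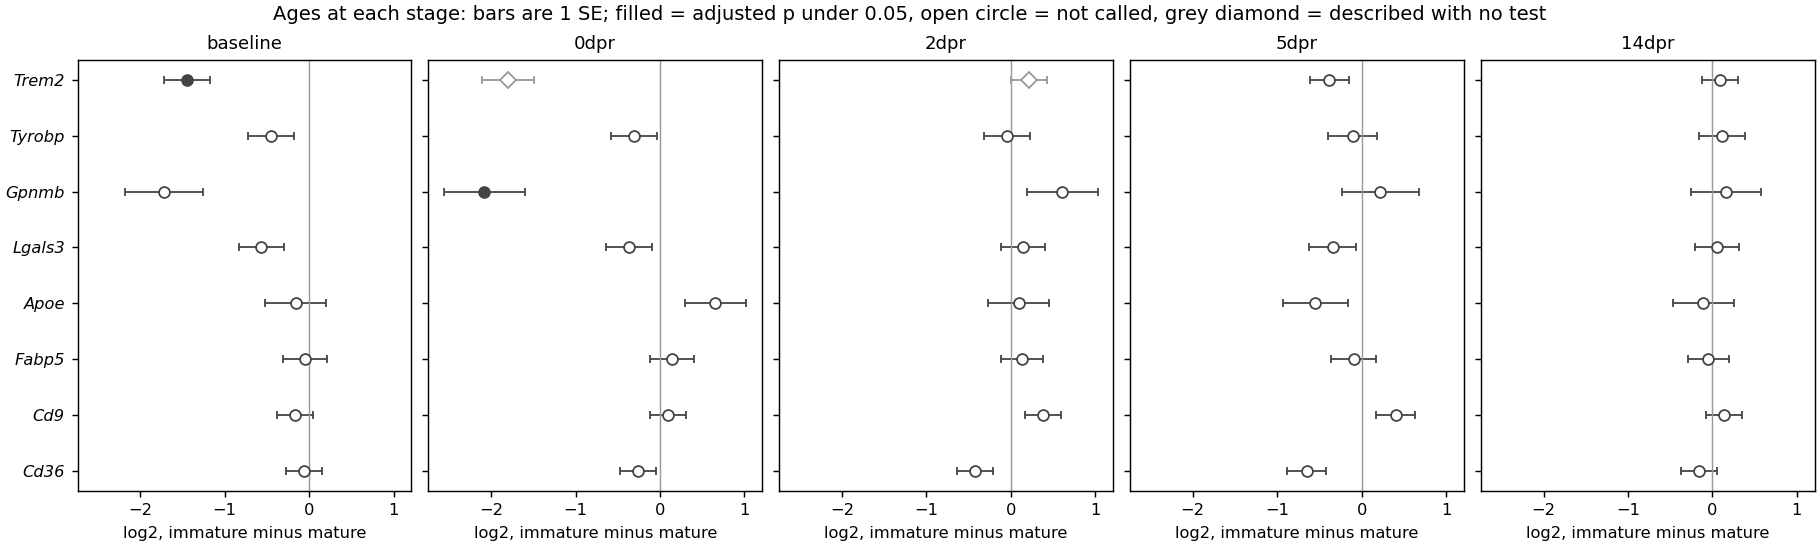
Fitted log2 difference of immature minus mature mice for the 8 members at each stage, with bars of 1 SE; filled points passed an adjusted p of 0.05, open circles did not, and grey diamonds are Trem2 at 0dpr and 2dpr, described with no test. Trem2 and Gpnmb stood at -1.44 and -1.72 at baseline and at -1.80 and -2.08 at 0dpr, and from 2dpr on the values lay between -0.65 (Cd36 at 5dpr) and 0.61 (Gpnmb at 2dpr).

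The comparison of 0dpr with baseline sets tissue just after resection beside tissue before it, and these tissues also differed in marker sums of cell types, as given below. Tyrobp, the adaptor of TREM2 and of other receptors of myeloid and natural killer cells, fell in both ages. It was 198, 135, 168 and 146 CPM at baseline and 66.3, 136, 34.0 and 76.5 CPM at 0dpr in immature mice, where 1 library of 0dpr overlapped the baseline. In mature mice it was 229.8, 215, 291 and 147 CPM at baseline and 64.3, 137, 72.4 and 114 CPM at 0dpr, without overlap. The fitted changes were -1.05 ± 0.276 (SE) and -1.19 ± 0.276 (SE), with edgeR's adjusted p = 0.0141 and 0.00201.

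Lgals3, which encodes the lectin galectin-3 of phagocytes, fell with it, from 76.0 to 42.4 CPM in immature mice (log2 -0.84, edgeR's adjusted p = 0.0408) and from 113 to 54.5 CPM in mature mice (log2 -1.05, edgeR's adjusted p = 0.00485). Cd36, a scavenger receptor and fatty acid transporter, rose from 407 to 711 CPM (log2 0.81, edgeR's adjusted p = 0.0161) and from 424 to 854 CPM (log2 1.01, edgeR's adjusted p = 0.000994). The groups did not overlap for Lgals3 or Cd36 in either age. Thus 3 of the 7 tested members were called in each age, where 10.6% of all genes were called in immature and 22.5% in mature mice. Gpnmb (-0.47 and -0.10), Apoe, Fabp5 and Cd9 were not called in either age. Trem2, described with no test, was at -0.64 ± 0.327 (SE) and -0.29 ± 0.255 (SE). Tested for a different change in the ages, 0 of 7 members were called by edgeR, with 0 at an unadjusted p under 0.05 and 0 by DESeq2, where 0.0141% of all genes were called.

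The skeletal muscle marker sum was 57309 to 77909 and 31822 to 65785 CPM at baseline, and 65735 to 137822 and 74026 to 152616 CPM at 0dpr, in immature and mature mice. Of its 15 markers, 1 and 15 were called higher at 0dpr, where 5.98% and 11.9% of all genes were. The mean neutrophil marker sum went from 8121 to 2903 and from 12738 to 3947 CPM. The mean osteoclast marker sum went from 2560 to 1146 and from 2799.6 to 1429 CPM. The part of these cell types in the changes of the members was not tested beyond the fits below. Of the 14 macrophage markers, 1 was called lower at 0dpr in immature and 10 in mature mice, where 4.66% and 10.6% of all genes were. With a muscle covariate 0 of 7 members were called in either age, and in immature mice 0 of 7 were called when 0dpr replicate 3 was left out or when only the 8 libraries compared were fitted, and 1 of 7 when baseline replicate 2 or 6 was left out. The share of all genes called in these fits was not counted. Of the 8 fits that left out a library, Lgals3 in immature mice was called in those without baseline replicate 4 or 0dpr replicate 2 and in no other (edgeR's adjusted p up to 0.215), nor was it called without both libraries that stood apart (log2 -0.74, edgeR's adjusted p = 0.0633).

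From 0dpr to 2dpr, 6 of the 7 tested members rose in both ages, where 21.8% of all genes were called higher in immature and 22.7% in mature mice. The median change of the 7 tested members, Trem2 left out, was that of Tyrobp, 2.66 in immature and 2.40 in mature mice on the log2 scale. Over all genes tested the median was -0.04 and -0.05. The member that was not called was Cd36, at -0.09 and 0.07.

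Gpnmb reached 947, 398, 689 and 945 CPM at 2dpr in immature and 198, 1020.2, 269 and 467 CPM in mature mice. Every library of 2dpr lay above every library of 0dpr of its age. The change was 6.66 ± 0.552 (SE) in immature and 3.97 ± 0.479 (SE) in mature mice, with edgeR's adjusted p = 6.46e-12 and 1.38e-08. As for Trem2, the mean at 2dpr differed less between the ages (745 and 488 CPM) than that at 0dpr (7.35 and 31.1 CPM), and the difference of the changes, described with no test, was 2.69 ± 0.638 (SE). For the other 6 members that difference lay between -0.56 (Apoe) and 0.51 (Lgals3).

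Lgals3 was 1359, 900.3, 1217 and 1092 CPM at 2dpr in immature and 823, 1596, 535 and 1168 CPM in mature mice, against 27.0 to 61.6 and 36.3 to 73.0 CPM at 0dpr. The mean levels were 26.9 and 18.9 times those of 0dpr, without overlap, and the fitted changes were 4.75 ± 0.310 (SE) and 4.24 ± 0.302 (SE) with edgeR's adjusted p = 2.39e-14 and 1.10e-13. Fabp5, a carrier of fatty acids inside the cell, was 411, 266, 300.2 and 283 CPM in immature and 219, 326, 159 and 442 CPM in mature mice, against 30.6 to 44.2 and 19.3 to 42.8 CPM at 0dpr. Its fitted change was nearly the same number in both ages, 3.20 ± 0.272 (SE) and 3.21 ± 0.273 (SE), with edgeR's adjusted p = 1.23e-11 and 6.98e-12. Tyrobp reached 512, 445, 521 and 506 CPM in immature and 595, 610.0, 276 and 559.6 CPM in mature mice, with changes of 2.66 ± 0.289 (SE) and 2.40 ± 0.286 (SE) and edgeR's adjusted p = 2.36e-09 and 1.12e-08.

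Apoe, the apolipoprotein that macrophages load with exported cholesterol, was 1264, 359.6, 247 and 432 CPM at 0dpr and 2555, 1814, 1245 and 1757 CPM at 2dpr in immature mice. The first of these 0dpr libraries was the one with hepatocyte markers, and it alone overlapped the values of 2dpr. In mature mice Apoe was 323, 394, 390.4 and 355 CPM at 0dpr and 1192, 2363, 577 and 2778 CPM at 2dpr, without overlap. The changes were 1.68 ± 0.369 (SE) and 2.24 ± 0.376 (SE), with edgeR's adjusted p = 0.000316 and 6.11e-06, and 2.41 and 2.53 without both libraries that stood apart. Without both, Gpnmb stood at 6.68 and 4.17, Lgals3 at 4.65 and 4.45, Fabp5 at 3.15 and 3.40, and Tyrobp at 2.59 and 2.60, all still called. Cd9, a tetraspanin of the surface of many cells, had the smallest of the called changes, 1.04 ± 0.213 (SE) and 0.75 ± 0.212 (SE), with edgeR's adjusted p = 0.000134 and 0.00379, and 0.98 and 0.83 without both libraries.

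**Figure D3:**
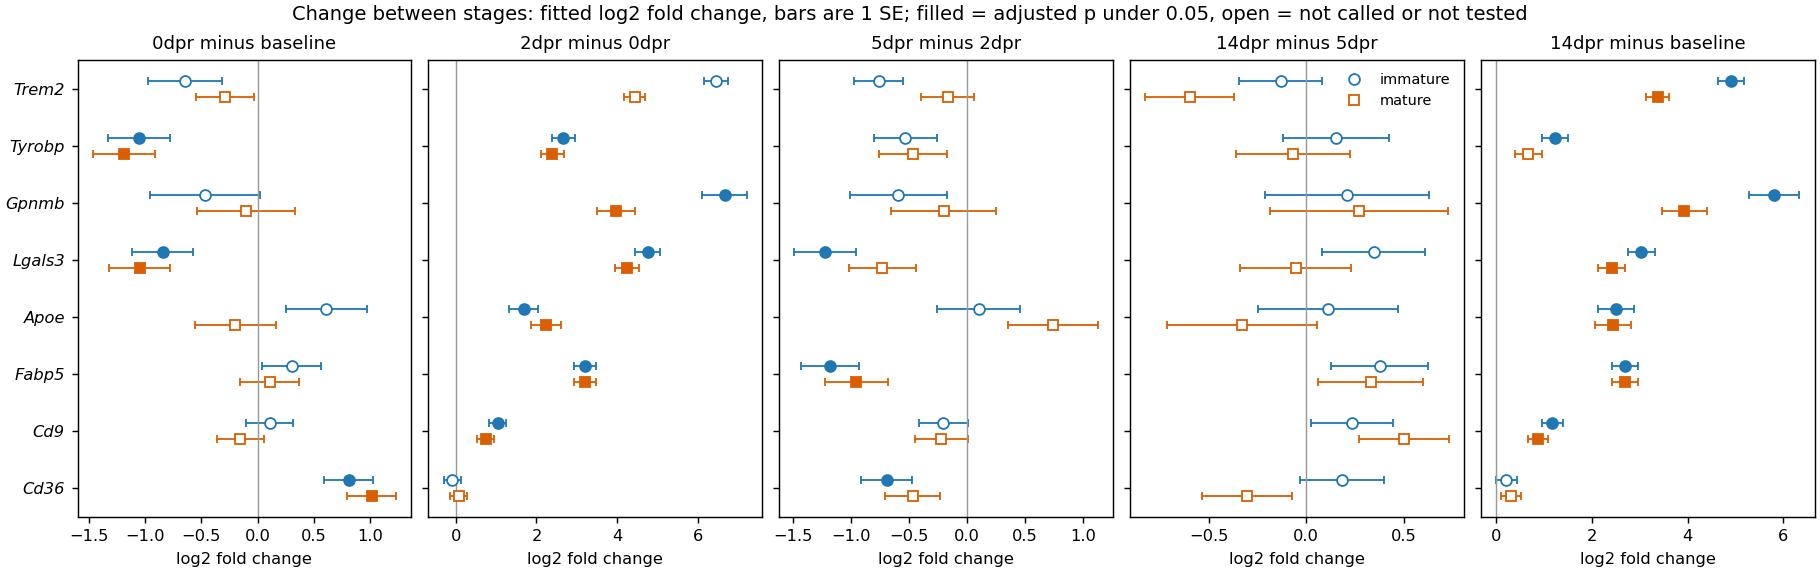
Fitted log2 fold change of the 8 members between stages in immature (circles) and mature mice (squares), with bars of 1 SE; filled points passed an adjusted p of 0.05, and open points did not or, for Trem2 in the 3 steps that use 0dpr or 2dpr, were not tested. Gpnmb rose by 6.66 in immature and 3.97 in mature mice from 0dpr to 2dpr, and no point is filled from 5dpr to 14dpr.

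Markers of whole cell types moved at the same time. The macrophage marker sum was 1228 to 2044 and 1305 to 2447 CPM at 0dpr and 7698 to 9263 and 7633 to 9249.9 CPM at 2dpr in immature and mature mice, and all 14 markers were called higher in both ages. The muscle marker sum went to 12850.4 to 19142 and 9182 to 19093 CPM at 2dpr, with all 15 markers called lower. Of all genes, 21.8% and 22.7% were called higher and 22.2% and 24.9% lower. The osteoclast marker sum went from 523 to 1564 to 583 to 1058 CPM in immature and from 1027 to 1859.7 to 436 to 871 CPM in mature mice. With the macrophage covariate 0 of 7 members were called in either age, in a fit where the covariate did not overlap between the stages compared, and with the muscle covariate 2 of 7 were called in mature mice. How many of all genes kept a call with either covariate was not counted. The part of these cell types in the changes of the members was not tested beyond these fits.

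**Figure D4:**
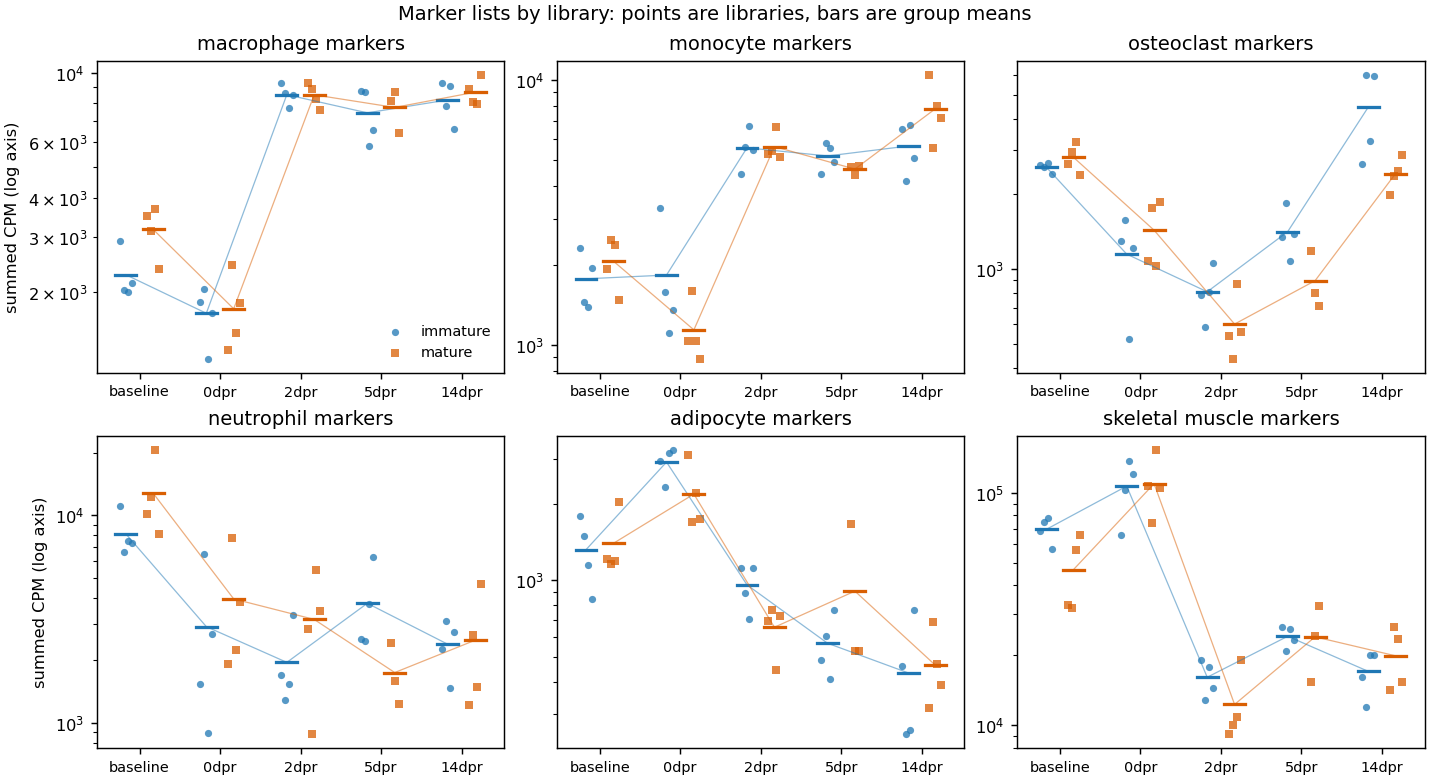
Summed CPM on a log axis of 6 lists of cell type markers in each library, by stage, for immature (circles) and mature mice (squares), with bars at the group means. Macrophage marker sums were at most 3673 CPM at baseline and 0dpr and at least 5828 CPM from 2dpr on, and skeletal muscle marker sums were at least 31822 CPM at baseline and 0dpr and at most 32543 CPM from 2dpr on.

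To set the members against the macrophages of the same library, the mean log2 CPM of the 14 markers was subtracted from each member's log2 CPM. Relative Trem2 was -4.13 ± 0.331 (SD, n = 4) in immature and -3.17 ± 0.0450 (SD, n = 4) in mature mice at baseline, and the ages did not overlap. The difference was -0.96, with an exact two-sided permutation p = 0.0286, the smallest that 4 against 4 libraries allow, and an adjusted value of 0.351 over the 43 tests of this kind. For Gpnmb the differences were -1.29 at baseline and -1.90 at 0dpr, with the same exact permutation p of 0.0286 and adjusted value of 0.351 each. The mean of the macrophage markers itself differed by -0.41 between the ages at baseline (exact permutation p = 0.0571). None of the 43 tests passed after adjustment. As no test could give a p under 0.0286, a few tests at that floor could not have passed over 43 tests. The adjusted values therefore do not decide whether the ages differed.

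Relative to macrophage markers, the members did not move alike from 0dpr to 2dpr. Relative Trem2 went from -4.42 to -0.70 in immature and from -2.83 to -1.09 in mature mice, and relative Gpnmb from -2.55 to 1.42 and from -0.65 to 0.46. Relative Lgals3 went from -0.11 to 2.11 and from 0.24 to 1.71. Relative Tyrobp stayed between 0.67 and 1.07 in the group means of both stages. Relative Cd36 went from 3.98 to 1.35 and from 4.26 to 1.56, and relative Cd9 from 1.76 to 0.19 and from 1.63 to -0.35. These changes are given as values, without a test.

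**Figure D5:**
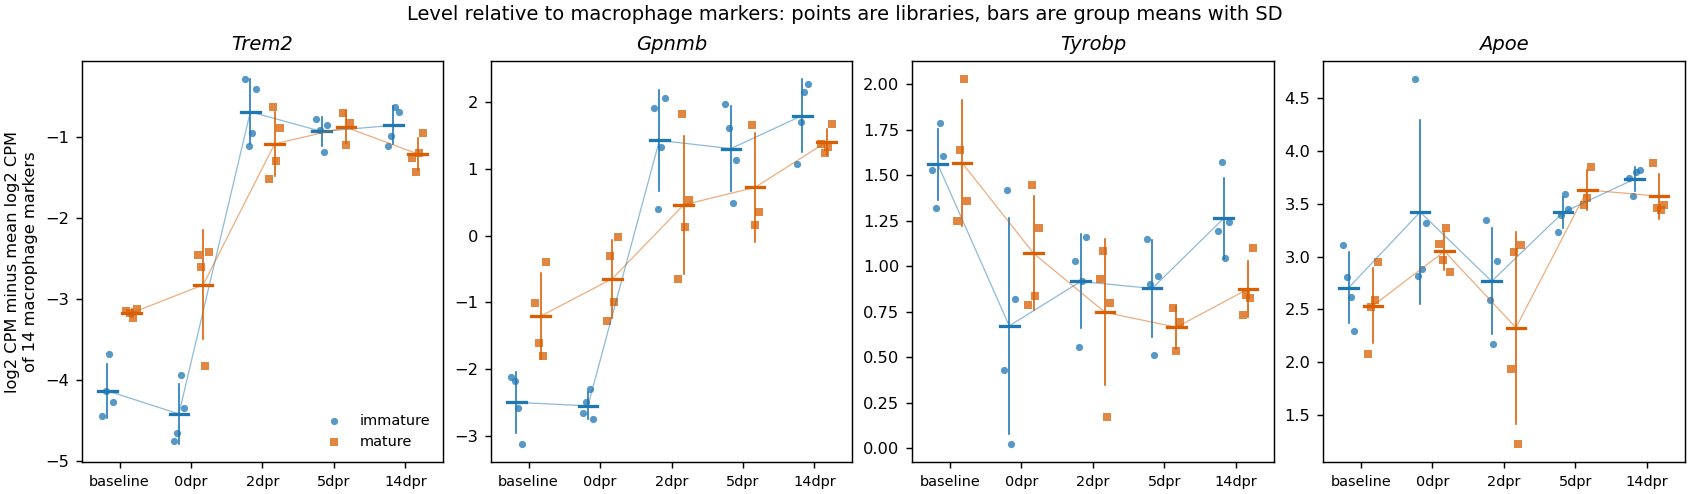
Log2 CPM of Trem2, Gpnmb, Tyrobp and Apoe minus the mean log2 CPM of 14 macrophage markers of the same library, by stage, for immature (circles) and mature mice (squares), with bars at group means and lines of 1 SD. Group means of Trem2 lay between -4.42 and -2.83 at baseline and 0dpr and between -1.21 and -0.70 from 2dpr on.

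From 2dpr to 5dpr, 3 of the 7 tested members fell in immature and 1 of 7 in mature mice, where 3.68% and 6.38% of all genes were called lower. These values share the 2dpr libraries with the change before. In immature mice Fabp5 fell from 315 to 139 CPM (-1.18 ± 0.251 (SE), edgeR's adjusted p = 0.00197), Lgals3 from 1142 to 490.3 CPM (-1.22 ± 0.267 (SE), edgeR's adjusted p = 0.00260) and Cd36 from 669.9 to 414 CPM (-0.69 ± 0.216 (SE), edgeR's adjusted p = 0.0399). The libraries of the stages did not overlap for any of these 3 genes. In mature mice Fabp5 fell from 287 to 148 CPM (-0.95 ± 0.274 (SE), edgeR's adjusted p = 0.0156). Trem2, described with no test, had means of 164 and 96.7 CPM in immature mice (-0.76 ± 0.214 (SE)) and of 141 and 126 CPM in mature mice (-0.17 ± 0.229 (SE)). The ages were not shown to differ in this change, with 0 of 7 members called by edgeR, 0 at an unadjusted p under 0.05 and 0 by DESeq2, where edgeR called 0 of all genes (0%), with 1715 at an unadjusted p under 0.05 and 36 called by DESeq2.

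Of the 8 fits that left out a library, Cd36 in immature mice was called in the one without 5dpr replicate 2 and in no other (edgeR's adjusted p up to 0.138). In mature mice 2 of 7 members were called without 2dpr replicate 3, the library that stood apart, 0 without 5dpr replicate 4, where Fabp5 was -0.84 with edgeR's adjusted p = 0.0969, and Fabp5 was also lost without 2dpr replicate 4 (-0.66, edgeR's adjusted p = 0.0871). The share of all genes called in these fits was not counted.

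Between 5dpr and 14dpr no member was called. In immature mice 0 of 8 were called by edgeR, with 0 at an unadjusted p under 0.05 and 0 by DESeq2, where 3.18% of all genes were called. In mature mice 0 of 8 were called, with 2 at an unadjusted p under 0.05 and 0 by DESeq2. Over all 21204 genes, edgeR called 4.18%, 3905 genes had an unadjusted p under 0.05, and DESeq2 called 1386. The fitted changes ranged from -0.13 (Trem2) to 0.38 (Fabp5) in immature mice and from -0.60 (Trem2) to 0.50 (Cd9) in mature mice. Over the same interval 6 of 12 osteoclast markers rose in immature and 5 of 12 in mature mice, where 1.73% and 1.95% of all genes rose. The osteoclast marker sums were 2638 to 5977 and 1986 to 2849 CPM at 14dpr. For a different change in the ages, 0 of 8 members were called, with 0 at an unadjusted p under 0.05 and 0 by DESeq2, where edgeR called 0 of all genes (0%), with 901 at an unadjusted p under 0.05 and 5 called by DESeq2.

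At 14dpr most members still stood above baseline. In immature mice 7 of 8 and in mature mice 6 of 8 were called higher, where 16.4% and 17.1% of all genes were. The median change of the 8 members was 2.60 and 2.43, beside -0.04 and -0.03 over all genes. Trem2 was 29.9 times its baseline mean in immature and 10.4 times in mature mice (4.91 ± 0.271 (SE) and 3.38 ± 0.243 (SE), edgeR's adjusted p = 3.07e-15 and 4.90e-13). Gpnmb was 393, 448, 756 and 691 CPM in immature and 522, 428, 425 and 672 CPM in mature mice at 14dpr, 56.0 and 15.2 times baseline (5.81 ± 0.527 (SE) and 3.93 ± 0.476 (SE), edgeR's adjusted p = 1.37e-10 and 4.12e-08).

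Apoe was 2133 CPM in immature and 2296 CPM in mature mice at 14dpr, 2.50 and 2.45 above baseline on the log2 scale, and its highest group mean was 2887 CPM in mature mice at 5dpr. Fabp5 stood 2.69 and 2.69, Lgals3 3.03 and 2.41, and Cd9 1.17 and 0.87 above baseline in immature and mature mice, all called by edgeR with adjusted p of at most 0.00137. Libraries of 14dpr did not overlap baseline for any member but Cd36, and the share of all genes without such overlap was not counted. Tyrobp rose by 1.24 in immature mice (edgeR's adjusted p = 0.000580) and was 0.67 in mature mice, where it missed the threshold (edgeR's adjusted p = 0.0533). In mature mice it was called without both libraries that stood apart, with 7 of 8 members. In that fit 40.1% of all genes were called in either direction, against 33.5% in the main fit. Neither of the libraries left out was of baseline or 14dpr. Cd36 was not called in either age, at 0.21 and 0.31. With the macrophage covariate, 3 of 8 members were called higher in each age, and the share of all genes called in that fit was not counted. The covariate did not overlap between baseline and 14dpr in either age, so that fit cannot tell macrophage content and stage apart.

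Whether the ages differed in the rise from baseline to 14dpr could be tested on libraries by which Trem2 was not chosen. The difference was 1.53 ± 0.346 (SE) for Trem2, with edgeR's adjusted p = 0.104, and 1.88 ± 0.622 (SE) for Gpnmb, with edgeR's adjusted p = 0.367. Thus 0 of 8 members were called, with 2 at an unadjusted p under 0.05 and 1 by DESeq2. Over all 21204 genes, edgeR called 0.0472%, 1693 genes had an unadjusted p under 0.05, and DESeq2 called 59. The call of Trem2 depended on the fit. DESeq2 gave 1.55 with an adjusted p = 0.00873, edgeR on only the libraries compared 1.54 with an adjusted p = 0.0168, and edgeR without both libraries that stood apart 1.53 with an adjusted p = 0.0444, while the estimate itself stayed between 1.36 and 1.68 when single libraries were left out. Neither library that stood apart was of baseline or 14dpr, and the fit without both called 0.189% of all genes. Trem2 was also called without mature baseline replicate 4 (1.63, edgeR's adjusted p = 0.0440) or mature 14dpr replicate 4 (1.68, edgeR's adjusted p = 0.0498). This difference shares the baseline libraries with the comparison of the ages at baseline, where Trem2 was -1.44, and at 14dpr the ages differed by 0.08 ± 0.214 (SE).

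Per kilobase of exon, with the length taken over all annotated exons of a gene, the members differed widely in level. This length was 4946 bases for Trem2, 3567 for Fabp5 and 667 for Tyrobp. It can exceed the length of any 1 transcript, so the order of the members depends on it. At 2dpr in immature mice, Apoe stood at 862, Tyrobp at 743 and Lgals3 at 615 CPM per kb, whereas Cd36 stood at 187, Cd9 at 149.5, Gpnmb at 114, Fabp5 at 88.4 and Trem2 at 33.1 CPM per kb. At baseline in immature mice, Tyrobp stood at 243, Gpnmb at 1.57 and Trem2 at 0.596 CPM per kb. By this length Trem2 had the lowest level at both stages, and its adaptor one of the highest.

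The further genes of the lipid-associated programme moved with the members from 0dpr to 2dpr. Of 24 such genes on a list beside the members, 23 were matched, 19 rose and 3 fell in immature and 18 rose and 3 fell in mature mice, with medians of 2.30 and 2.06 on the log2 scale. Over all genes 21.8% and 22.7% were called higher and 22.2% and 24.9% lower. The list had been drawn up with earlier results of these data known. The largest changes were those of Mmp12, a macrophage elastase (6.66 and 5.44), the lysosomal protease Ctss (4.71 and 4.37), Cd68 (3.95 and 3.63) and the matrix protein gene Spp1 (3.91 and 4.33). At 14dpr, 19 of 23 stood above and 1 below baseline in immature mice and 18 above and 2 below in mature mice, led by Mmp12 (9.38 and 7.34), where 16.4% and 17.1% of all genes were called above and 15.1% and 16.4% below. Between the ages, 0 of 23 were called at baseline and 0 at 0dpr, where 0.585% and 0.726% of all genes were called.

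Lpl, which splits triglycerides on capillary walls and in lipid-laden macrophages, ran the other way. It was 457 to 592 CPM at baseline, 726 to 1232 CPM at 0dpr and 413 to 696 CPM at 2dpr in immature mice, and 359 to 573, 744 to 1418 and 277 to 475 CPM in mature mice. It rose from baseline to 0dpr by 0.81 and 1.13 (edgeR's adjusted p = 0.0180 and 0.000476) and changed by -0.75 and -1.47 from 0dpr to 2dpr (edgeR's adjusted p = 0.00651 and 1.53e-06). The adipocyte marker sum was 844 to 1794 CPM at baseline, 2334 to 3238 CPM at 0dpr and 706 to 1123 CPM at 2dpr in immature mice. In both ages 9 of 9 adipocyte markers were called lower at 2dpr than at 0dpr, where 22.2% and 24.9% of all genes were. The part of adipocytes in the course of Lpl and Cd36 was not tested.

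Partners and kinases around DAP12 rose at 2dpr as well. Of 22 genes, 17 rose and 2 fell in immature mice, where 21.8% of all genes rose and 22.2% fell. In mature mice 16 rose and 2 fell, where 22.7% and 24.9% of all genes did. The medians of the list were 1.41 and 1.44. The largest were Ms4a6d (5.34 and 5.89) and Ms4a4a (3.21 and 4.09), members of a family of membrane proteins of myeloid cells, the adaptor Lat2 (3.47 and 3.69) and the receptor Sirpb1a (4.38 and 3.39). At 0dpr 13 of 22 had fallen from baseline in immature and 18 of 22 in mature mice, and 0 had risen, where 4.66% and 10.6% of all genes had fallen. At 14dpr 6 stood above and 4 below baseline in immature mice and 6 above and 6 below in mature mice, where the lowest was Treml1, a receptor of platelets (-2.81 and -3.84). Over all genes 16.4% and 17.1% stood above and 15.1% and 16.4% below.

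Of 19 genes of cholesterol uptake, storage and efflux, 9 rose and 4 fell from 0dpr to 2dpr in immature and 11 rose and 5 fell in mature mice, with medians of 0.44 and 0.99. Over all genes 21.8% and 22.7% rose and 22.2% and 24.9% fell in this step, and the share that fell was near that of the list. Msr1, a scavenger receptor for modified lipoproteins, rose by 4.16 and 5.11, Soat1, which esterifies cholesterol, by 2.96 and 2.88, and the exporter Abcg1 by 2.87 and 2.25. Vldlr, a receptor for lipoproteins rich in triglyceride, changed by -2.28 and -2.41. At 14dpr 9 and 8 of the 19 stood above baseline and 1 below in each age, with Msr1 at 3.55 and 3.54 and the exporter Abca1 at 1.79 and 2.17. Of all genes, 16.4% and 17.1% stood above and 15.1% and 16.4% below.

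Of 16 lysosomal genes and their MiT-TFE and PPAR regulators, 14 rose and 1 fell in immature and 13 rose and 2 fell in mature mice from 0dpr to 2dpr, with medians of 1.24 and 1.23. Of all genes, 21.8% and 22.7% rose and 22.2% and 24.9% fell in this step. Grn, which encodes progranulin, led the list with 2.56 and 2.65. The protease gene Ctsa rose by 1.86 and 1.81. At 14dpr 12 stood above and 0 below baseline in immature mice and 11 above and 1 below in mature mice. Of all genes, 16.4% and 17.1% stood above and 15.1% and 16.4% below.

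The genes whose pattern over the 39 libraries was most like that of Trem2 were, by Pearson correlation of log2 CPM among 16146 genes, Ctss (0.977), Gpnmb (0.975), Lipa (0.973), Akr1a1 (0.972), Ctsz (0.971), Gla (0.971), C1qb (0.971), Ctsb (0.970), Psap (0.969) and Lgals3 (0.968). Of the other members, Fabp5 stood at 0.942, Tyrobp at 0.881, Apoe at 0.872, Cd9 at 0.781 and Cd36 at 0.0884, and Lpl at -0.628. The points share the 5 stages and 2 ages. Group means of Trem2 were 1.86 to 7.98 CPM at baseline and 0dpr and 83.2 to 164 CPM from 2dpr on. Of these 10 genes, 3 were also among the first 10 by Spearman correlation and 4 by correlation of the 10 group means, so that the order within such a list depends on the measure.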

How the data were processed

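Bulk RNAseq libraries of whole rib tissue from 10 groups (2 ages, 5 stages) were analysed, 39 in all, while replicate 2 of mature mice at 5dpr was not analysed here. The authors sequenced paired-end reads of 150 bases from a stranded kit, aligned them to GRCm38 with STAR 2.5.2a, which per the labels also counted them, and the deposited counts are raw whole numbers in a table of 48733 genes and in a shorter one of 21204 genes, whose selection is not given in the sources used here. The authors also deposited normalized signal values, which are CPM with TMM factors and equalled the CPM computed here with a largest relative difference of 5e-15. Columns of per-sample values not used numbered 0.

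Counts of the filtered table were fitted with edgeR 4.0.16 (quasi-likelihood test, TMM factors, 1 coefficient per group, all 39 libraries), in R 4.3.3 with limma 3.58.1, with Benjamini-Hochberg adjustment and a threshold of 0.05. Log2 CPM used a prior count of 2. Relative levels were compared between ages by exact two-sided permutation tests. The fit was first tested on simulated counts with known changes. The alternatives were RLE factors, the Wald test of DESeq2 1.42.0, edgeR's filter or no filter, a fit of only the libraries compared, a block for the replicate number, muscle or macrophage marker covariates, and each library left out. Leaving out both libraries that stood apart, and the hepatocyte list, were added after the data had been seen.

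The members and gene lists were chosen with earlier results of these data known. Of 203 listed symbols 198 were matched. Trem2 was fitted throughout but no test of it that uses 0dpr or 2dpr is given. All members were named, and from other lists examples among the up to 4 called genes with the largest change and a mean of at least 1 CPM. The groups share replicate numbers in part, but over all 154 pairs same-numbered libraries did not deviate together (median correlation 0.00876, from -0.232 to 0.346). The exception among the groups compared was 0dpr, where the 4 pairs of immature and mature libraries had correlations of 0.178 to 0.296. Such a pairing would rest on the data and not the labels, and the tests of the ages at 0dpr did not use it. Libraries of a group differed by at least 6.48 times the counting variance, so that none was a duplicate. The labels do not say which library was in which of the separate sequencing runs, and run effects were not tested. Nor do they state that each library is a separate animal, so that p-values measure the spread between libraries. Promoter windows were read from RefSeq's table, with 6 of 8 members matched.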

Additional observations from a re-analysis of the deposited data

Results flagged for a closer look

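In 72 groups of 4 libraries, each member's highest and lowest CPM was set against the other libraries of its group, and the gap to the nearest divided by the whole range was compared with the critical value of 0.829. Chance alone marks about 1 in 20 such groups. Tyrobp in mature 2dpr replicate 3 was 276 CPM, far below the 559.6 to 610.0 CPM of the other libraries (ratio 0.849). This is the library that stood apart across the genome. Fabp5 in mature baseline replicate 4 was 41.2 CPM, above the 24.0 to 26.5 CPM of the others (ratio 0.853). Fabp5 in immature 0dpr replicate 3 was 44.2 CPM, above the 30.6 to 31.6 CPM of the others (ratio 0.930).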

How the results depend on the processing

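Of the 180 counts of members recomputed under alternatives other than single left-out libraries, 155 stayed within 1.5 times. Calls over all genes were counted for the main fit, for DESeq2 and for the fit without both libraries that stood apart. In that order they were 124, 334 and 357 between the ages at baseline and 154, 349 and 117 at 0dpr. From 2dpr to 5dpr in mature mice they were 3084, 3855 and 3115, and in the difference of the rise to 14dpr 10, 59 and 40. Counts of members under the other alternatives have no such share beside them. From baseline to 0dpr in immature mice, 3 members became 0 with only the libraries compared, with the muscle covariate and with the macrophage covariate, and in mature mice 0 with either covariate. From 0dpr to 2dpr, 6 became 0 with the macrophage covariate in both ages and 2 with the muscle covariate in mature mice. From 2dpr to 5dpr in mature mice, 1 became 2 with DESeq2 or without both libraries that stood apart, and 0 with only the libraries compared. From 5dpr to 14dpr in mature mice, 0 became 1 (Trem2, -0.58) with only the libraries compared. From baseline to 14dpr, 7 and 6 became 3 each with the macrophage covariate. Between the ages at baseline, 1 became 2 with DESeq2, no filter, only the libraries compared or without both libraries, and 0 with the macrophage covariate. At 0dpr, 1 became 0 with only the libraries compared or without both libraries. In the difference of the rise to 14dpr, 0 became 1 with DESeq2 or without both libraries and 2 with only the libraries compared. The macrophage covariate turned the sign of Tyrobp (-0.40 and -0.93) and Apoe (-1.30 and -1.08) from 0dpr to 2dpr in immature and mature mice, of Tyrobp from baseline to 14dpr in immature mice (-0.64), and of values that were not called, namely Gpnmb from baseline to 0dpr (0.45) and from 2dpr to 5dpr (0.0814) in mature mice and Trem2 from 5dpr to 14dpr in immature mice (0.0163). The muscle covariate turned Gpnmb in mature mice from baseline to 0dpr (0.20) and from 2dpr to 5dpr (0.0190). The cause was not tested, though both covariates follow the stages. Genes most like Trem2 shared 3 of 10 with Spearman correlation and 4 of 10 with group means.

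The block for the replicate number was 1 effect per number, shared by all 10 groups. The check of the pairing bore out pairs for the ages at 0dpr and for no other comparison, so that this fit is not a paired test of 0dpr. In it Gpnmb at 0dpr was -2.06 between the ages (edgeR's adjusted p = 0.0410). With the block 1 member was called from baseline to 0dpr in immature mice, and no other count moved by over 1.5 times.

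With 1 library left out, counts ranged from 0 to 3 (baseline to 0dpr) and 2 to 3 (2dpr to 5dpr) in immature mice, 0 to 2 (2dpr to 5dpr) in mature mice, 0 to 1 between the ages at 0dpr and 0 to 1 in the difference of the rise to 14dpr. Values that were not called crossed 0. In mature mice Gpnmb ranged from -0.44 to 0.14 from baseline to 0dpr, from -0.79 to 0.45 from 2dpr to 5dpr and from -0.00194 to 0.86 from 5dpr to 14dpr (-0.00568 to 0.47 in immature mice). Between the ages, Gpnmb ranged from -0.0508 to 0.81 at 5dpr and from -0.00345 to 0.32 at 14dpr, and Trem2 from -0.0379 to 0.24 at 14dpr. The differences of the changes of Gpnmb ranged from -1.04 to 0.20 (2dpr to 5dpr) and from -0.65 to 0.21 (5dpr to 14dpr). Trem2 rested on 11 to 32 counts per library in immature mice before 2dpr, so that counting error adds to the spread.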
